A study of Drosophila melanogaster with 9 samples.

Results

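The cell surface genes of a Blimp-1 experiment in the pupal eye of Drosophila melanogaster are the 86 genes, of 904 listed in any of the authors' 4 deposited tables, whose function entry was cell surface or surface. The entry was read from the first of the tables that held the gene, and 15 of 101 genes with this entry were left out by name. Of the 86 genes, 66 were listed for Blimp-1 overexpression and 34 for Blimp-1 RNAi, so that 14 had values in both altered genotypes. Overexpression animals carried lGMR-GAL4 with UAS Blimp-1, RNAi animals carried lGMR-GAL4 with a Blimp-1 RNAi construct, and control animals carried lGMR-GAL4 alone. Every group thus shared the driver, whose long GMR element is active in the developing eye, and the control as labelled had no UAS insert. Each group had 3 biological replicates, each of retinas with optic lobes dissected 48 h after puparium formation from animals kept at 25 °C. The retina and the optic lobe cannot be told apart in these samples, nor can fewer cells of a type and less RNA per cell.

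Blimp-1 is a zinc finger transcription factor, known in flies as a repressor that is induced by the moulting hormone ecdysone and sets the timing of later steps of metamorphosis. In the middle of pupal life the eye changes from patterning to differentiation. Its lens-secreting cells build an apical extracellular matrix, its photoreceptors expand their light-sensing membrane, and photoreceptor axons and optic lobe neurons form synapses. Surface proteins serve each of these steps: cadherins, integrins and immunoglobulin proteins hold cells together, innexins form gap junctions, channels and receptors carry signals, and zona pellucida proteins anchor the apical matrix.

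The function entry is the authors' word and is broader than the plasma membrane. It covers arrestins, which are cytosolic proteins that bind rhodopsin at the membrane, PGRP-LB, a peptidoglycan-cleaving amidase known mainly in secreted form, and Syx17, a SNARE protein of autophagosomes. In 7 of the 14 genes listed in both altered genotypes the overexpression tables gave another function: Cad96Ca stood as an enzyme, atk as extracellular, CG15861 as secreted, Esyt2 as membrane trafficking, and Osi5, GNBP2 and CG6749 as unknown. All 86 genes were found by FlyBase identifier in Ensembl's BDGP6.54 annotation, which shares its coordinates with dm6. They lay on every large chromosome arm, with 24 on 3R, 23 on 3L, 15 on 2L, 12 on 2R and 12 on X.

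Values are the authors' normalized counts, read counts that share 1 scaling factor per library and are not scaled by gene length. Recovered reads in listed genes numbered 1322202 to 1918155 in overexpression, 954516 to 1318419 in RNAi and 1189615 to 2306340 in control libraries. Overexpression replicate 2 stood apart from the other overexpression libraries. It had the lowest value of its group in 17 of 27 lower cell surface genes (63.0%) and in 113 of 196 lower genes in all (57.7%). In the 27 genes its median log2 distance to the mean of the other overexpression libraries was -0.89, and in the 196 genes it was -0.46. Of 39 higher cell surface genes it was lowest in 15 and highest in 15. Of all 514 higher genes it was lowest in 121 and highest in 305, with a median distance of 0.25. Marker genes of other cell types also stood in the overexpression tables. The 9 listed neuronal markers of 32 were all lower, with summed levels of 1199 to 3806 normalized counts in overexpression and 6514 to 11148 in control. The 4 listed glial markers of 8 were all higher, at 12172 to 15147 in overexpression and 4973 to 5378 in control, and so were the 5 listed hemocyte markers of 11, at 1220 to 1704 in overexpression and 333 to 434 in control. In RNAi no neuronal or glial marker was listed, and of the hemocyte markers Pvr was higher and Ppn lower, with summed levels of 941 to 1185 in RNAi and 1764 to 2311 in control. Pvr alone had 461 to 551 in RNAi and 94.8 to 117 in control. The lower sum thus came from Ppn and does not show a fall of the markers as a set. These marker sums use the authors' scaling and were not recomputed under the TMM factors described below. Those factors moved the median log2 change of the genes listed for overexpression by -1.53. The markers elav, brp and repo had no entry in any table. The part of these markers in the results below was not tested, and 6 of the neuronal markers and 1 of the hemocyte markers are themselves among the cell surface genes.

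Among the 66 cell surface genes listed for overexpression, 39 were higher and 27 lower. Higher genes made up 59.1% of these and 72.4% of all 710 genes listed for overexpression, and lower genes 40.9% and 27.6%. Among the 34 listed for RNAi, 14 were higher (41.2%, beside 49.3% of all 373 listed genes) and 20 lower (58.8%, beside 50.7%). The tables hold only genes past the authors' thresholds, a log2 fold change of 1 or more in size with an adjusted p under 0.05. A refit with limma on log2(normalized count + 1) accordingly called 66 of 66 and 34 of 34 genes, as it did 100% of all listed genes in each comparison, and adds no evidence of change. The largest adjusted p in limma was 0.00655 for overexpression and 0.0021 for RNAi. With TMM factors in edgeR, which centre the changes on the listed genes, all of them past a threshold, the median log2 change of the 710 genes moved by -1.53, and 41 of the 66 genes were called (14 higher and 27 lower, beside 56.9% of all listed). Under those factors the 14 higher genes still called were Arr1, Arr2, Tsp29Fb, Tsp74F, pio, clumsy, mthl9, Ir68a, GNBP2, CG6749, CG10359, CG17111, Esyt2 and wdp. Another 15 kept their direction but lost the call: mew, bdl, Cad74A, atk, Inx3, Inx7, rtp, Gbeta76C, Rh5, mthl2, mthl10, fusl, wus, PGRP-LC and CG15020. The other 10 had a change below 0 that was not called: babos, in, Syx4, boss, CG9628, sinu, CG1806, Pvr, santa-maria and Cad96Ca. For RNAi the median moved by -0.0056. The 3 altered and 3 control libraries did not overlap in any of the 66 genes for overexpression (99.7% of all listed) or the 34 for RNAi (100% of all listed).

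The sizes of change were like those of the listed genes as a whole. In the authors' deposited table for overexpression the median log2 fold change was 1.87 for higher cell surface genes and -1.41 for lower ones, beside 1.89 and -1.46 for all listed genes. For RNAi the authors' deposited table gave medians of 1.78 and -1.67, beside 1.78 and -1.64. As folds of group means, changes in overexpression ran up to 289.4-fold for higher genes and 14.9-fold for lower genes. In RNAi they ran up to 19.0-fold and 12.5-fold. Standard errors in the text below are of the log2 ratio of group means, and means carry an SD over n = 3 libraries.

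**Figure D1:**
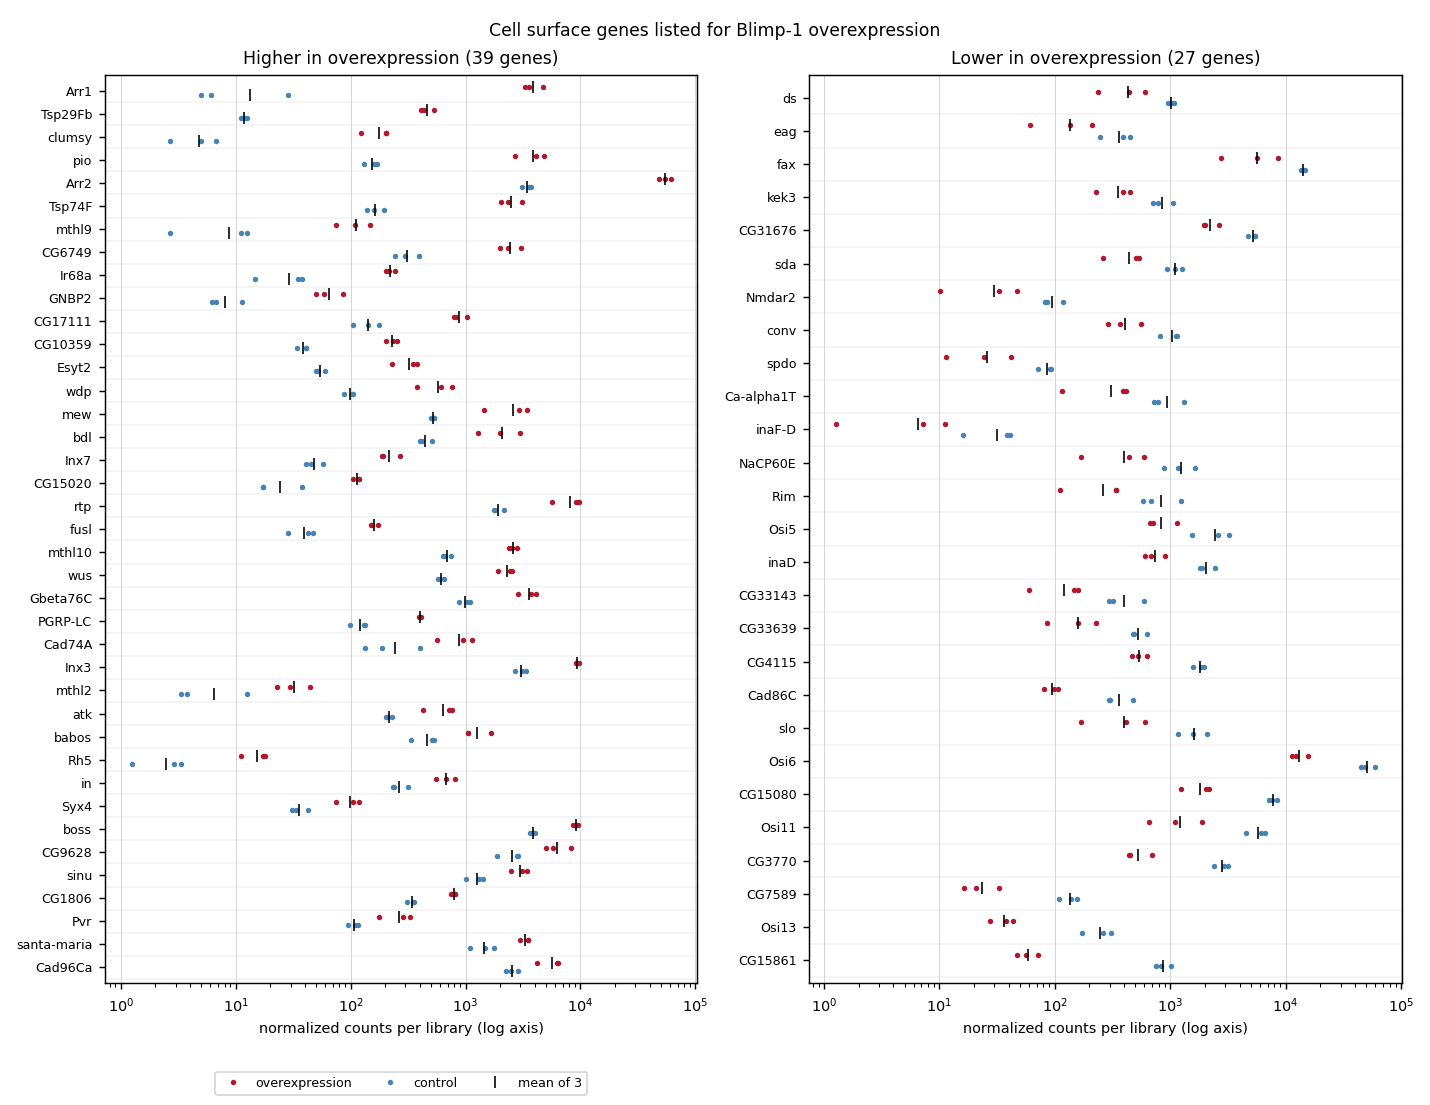
Normalized counts (log axis) of the 66 cell surface genes listed for Blimp-1 overexpression, one row per gene, with lower genes in one panel and higher genes in the other. Each point is 1 of 3 overexpression or 3 control libraries and each bar is a group mean; the colours do not overlap in any of the 66 rows.

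The Osiris genes, an insect family of small membrane proteins known from cuticle-forming epithelia, were the largest family among the cell surface genes listed for RNAi. They went both ways. Osi5, Osi7, Osi6 and Osi24 were lower in RNAi, and Osi2, Osi13 and Osi11 were higher. All 7 lie in the family's cluster on 3R, within 94.679 kb between the start of Osi24 (dm6 3R:6198811-6207678) and the end of Osi13 (3R:6291737-6293489). Lower and higher genes alternated along it: next to the lower Osi24 lies the higher Osi2 (3R:6209373-6213493), followed by the lower Osi5, Osi6 and Osi7 and then by the higher Osi11 and Osi13. The sources used here do not say how reads shared by related copies were counted.

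Osi7 had 17945, 10547 and 23415 normalized counts in RNAi libraries, against 52191, 69061 and 69601 in control libraries, and was 3.68-fold lower (log2 ratio -1.88 ± 0.34, SE). Osi2 had 19874, 11307 and 7577 normalized counts in RNAi libraries, against 2222, 1656 and 1437 in control libraries, and was 7.29-fold higher (log2 ratio 2.87 ± 0.45, SE). The RNAi libraries spread more than 2-fold in both genes, yet none reached the control range. Osi24 averaged 818 ± 109 normalized counts in RNAi and 2033 ± 195 in control, 2.49-fold lower. Neither Osi7, Osi2 nor Osi24 was listed for overexpression, so their overexpression levels are not known here.

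Osi13, Osi11, Osi5 and Osi6 had values in all 9 libraries. Osi13 had 27.3, 43.4 and 37.8 normalized counts in overexpression and 795, 1481 and 1661 in RNAi, against 173, 307 and 263 in control. Osi11 had 651, 1889 and 1105 in overexpression and 18422, 21756 and 15919 in RNAi, against 4557, 6624 and 6145 in control. In these genes the 3 groups formed 3 separate ranges, lowest in overexpression and highest in RNAi. Osi13 was thereby 36.3-fold and Osi11 15.4-fold lower in overexpression than in RNAi, with log2 differences in limma of -5.10 ± 0.32 and -4.06 ± 0.32 (SE, adjusted p = 2.37e-10 and 2.59e-09 over the 179 genes listed in both). Both genes were listed in opposite directions, which made a difference certain before the test, so these p-values add no evidence of it.

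Osi5 and Osi6 took another course. Osi5 had 712, 1143 and 668 normalized counts in overexpression and 164, 259 and 380 in RNAi, against 1536, 3252 and 2576 in control. Its RNAi libraries all lay under its overexpression libraries, and these under control (log2 difference of overexpression to RNAi 1.69, limma adjusted p = 0.000293). Osi6 had 15763, 12338 and 11349 in overexpression and 11877, 22419 and 25636 in RNAi, against 48950, 59420 and 45504 in control. Its altered genotypes overlapped each other and stayed under the control range (log2 difference -0.54, limma adjusted p = 0.0915; it passed without RNAi replicate 1, at 0.0033, and under TMM factors, where the difference was -1.51). A further 5 Osiris genes carried the function entry unknown and are thus not among the 86; in the authors' deposited table for overexpression Osi19, Osi14, Osi10 and Osi21 had log2 fold changes of 7.33, 3.02, 2.15 and 2.02, and Osi8 of -1.28.

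**Figure D2:**
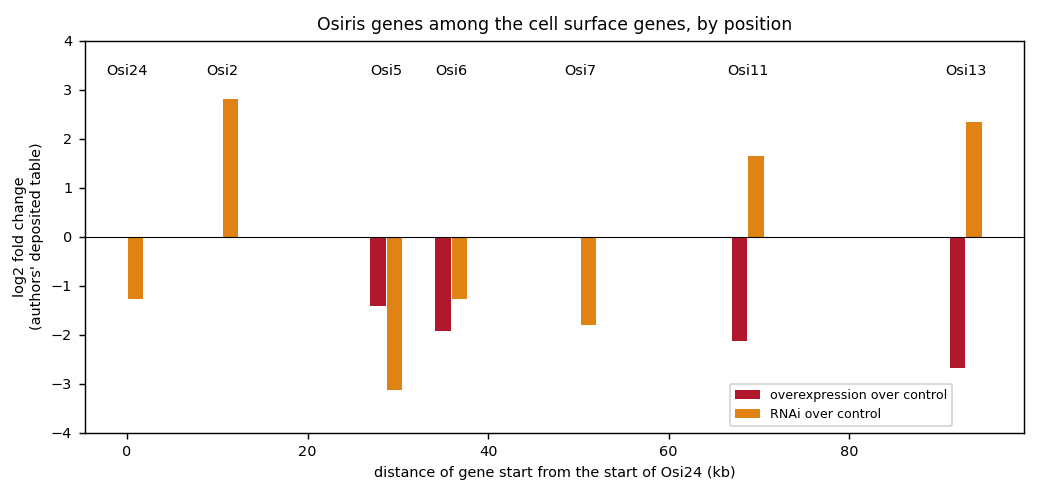
Deposited log2 fold change against control (y axis) of the 7 Osiris cell surface genes by distance in kb from the start of the first (x axis), for overexpression and RNAi. Osi11 and Osi13 lie above 0 in RNAi and below 0 in overexpression, while Osi5 and Osi6 lie below 0 in both.

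The 14 genes listed in both altered genotypes allow overexpression and RNAi to be set against each other, since their control values are equal in both tables. Both changes against control use the same 3 control libraries, so their joint direction is no independent result. Of the 14 genes 3 were listed in opposite directions (21.4%, beside 22.3% of the 179 genes listed in both): Osi11, Osi13 and Cad96Ca. Each had passed a log2 change of 1 or more in size both ways, so overexpression and RNAi had to differ before any test. Their calls thus add no evidence of a difference. The direct difference between overexpression and RNAi does not itself use the control level. It passed limma in 12 of the 14 genes (85.7%), beside 63.7% of the 179 genes listed in both. Of the 12, 5 were higher in overexpression than in RNAi (35.7% of the 14, beside 37.4%) and 7 lower (50.0%, beside 26.3%). With TMM factors in edgeR 10 of the 14 passed, 2 higher and 8 lower, and the median of the 179 genes moved by -0.93. The share of the 179 genes that passed under these factors is not known here, so this split cannot be read as particular to the 14.

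Cad96Ca, which encodes a receptor tyrosine kinase with a cadherin domain, known in wound repair, had the largest positive difference of the 14. It had 6414, 4218 and 6272 normalized counts in overexpression and 513, 410 and 569 in RNAi, against 2267, 2833 and 2464 in control. The 3 ranges were separate, with control between the altered genotypes, although under TMM factors the overexpression change against control turned round. Overexpression exceeded RNAi 11.3-fold (log2 difference 3.49 ± 0.25, SE, limma adjusted p = 9.37e-10). Since Cad96Ca was listed in opposite directions, this p-value adds no evidence of a difference.

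Other adhesion and matrix genes had the control group at the low end under the authors' scaling. Under TMM factors the overexpression change against control turned round for Pvr (-0.20) and lost its call for atk (0.075, edgeR adjusted p = 0.86). wdp, which encodes a leucine-rich repeat membrane protein, had 755, 381 and 608 normalized counts in overexpression and 332, 174 and 202 in RNAi, against 104, 103 and 87.3 in control (log2 difference of overexpression to RNAi 1.30, limma adjusted p = 0.00122; under TMM factors 0.37, edgeR adjusted p = 0.30). Pvr, the receptor of PDGF- and VEGF-related factors and also a hemocyte marker, had 329, 176 and 283 in overexpression and 551, 461 and 520 in RNAi, against 108, 117 and 94.8 in control (log2 difference -1.0, limma adjusted p = 0.00398). In both genes every altered library lay above every control library, and the altered genotypes did not overlap each other. atk, which encodes a leucine-rich repeat protein of the extracellular matrix, averaged 637 ± 183 normalized counts in overexpression and 986 ± 146 in RNAi, against 214 ± 14.6 in control. Its difference of -0.66 between overexpression and RNAi (limma adjusted p = 0.0397) did not pass without any of 5 single libraries: overexpression 2 (0.124), RNAi 2 (0.0584), RNAi 3 (0.147), control 2 (0.0504) or control 3 (0.0556).

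Among the others, CG15861 had 56.5, 71.4 and 47.0 normalized counts in overexpression and 101, 209 and 178 in RNAi, against 1010, 754 and 833 in control. It was 14.9-fold lower in overexpression and 5.33-fold lower in RNAi, and the altered genotypes differed by -1.42 on the log2 scale (limma adjusted p = 0.000447). Its neighbour CG3770 averaged 530 ± 150 in overexpression and 943 ± 203 in RNAi, against 2820 ± 375 in control (log2 difference -0.84, limma adjusted p = 0.00985). The annotated transcripts of CG15861 and CG3770 lie on opposite strands of 2R and overlap by 63 bases; the sources used here do not say whether counting used the strand. CG6749 averaged 2460 ± 523 in overexpression and 1280 ± 258 in RNAi, against 312 ± 76.5 in control (log2 difference 0.94, limma adjusted p = 0.0054; under TMM factors 0.023, edgeR adjusted p = 0.95). The lectin-like gene CG4115 differed by 0.73 (limma adjusted p = 0.0133; under TMM factors -0.21, edgeR adjusted p = 0.56), with means of 541 ± 83.9 in overexpression, 324 ± 35.2 in RNAi and 1801 ± 191 in control. Without RNAi replicate 2, the differences of CG3770 (adjusted p = 0.0658) and CG4115 (0.0693) did not pass limma. Esyt2, which encodes an extended synaptotagmin of membrane contact sites, averaged 320 ± 80.3 in overexpression and 212 ± 37.7 in RNAi, against 54.1 ± 5.19 in control. Its altered genotypes overlapped, and their difference of 0.58 missed the threshold (limma adjusted p = 0.0803). The difference passed in limma without overexpression replicate 2 (0.0132) and with the replicate block (0.0453), and in DESeq2 (adjusted p = 0.0433). Under TMM factors it turned round (-0.36).

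**Figure D3:**
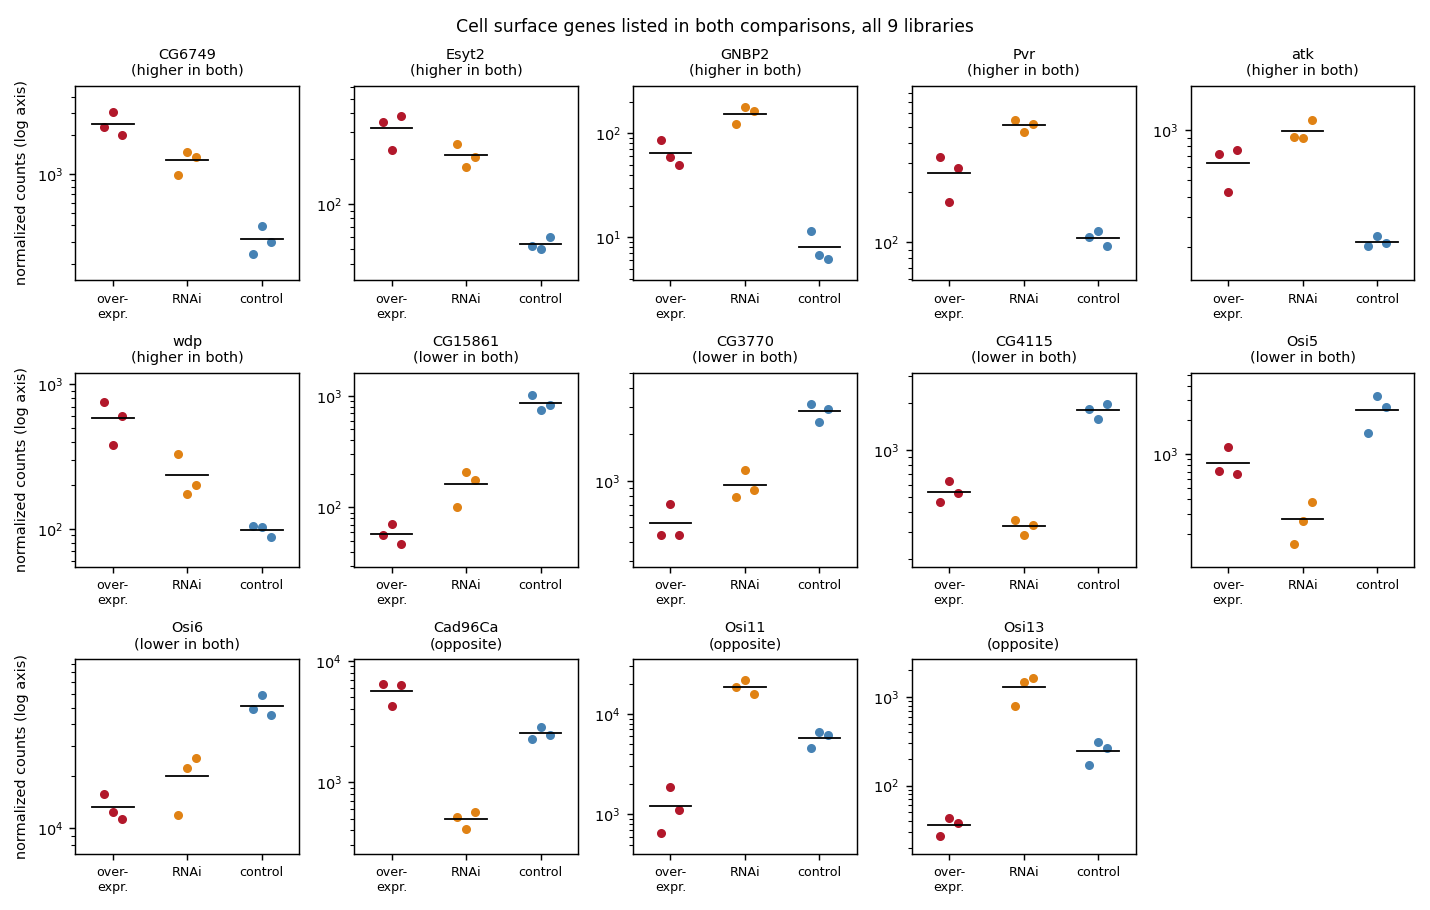
Normalized counts (log axis) in each of the 9 libraries for the 14 cell surface genes listed in both altered genotypes, with overexpression, RNAi and control drawn apart. Osi11 and Osi13 have control between a low overexpression and a high RNAi group, and Cad96Ca has control between a high overexpression and a low RNAi group under the authors' scaling.

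Immune recognition and scavenger genes were few. GNBP2, of the GNBP family of pattern recognition proteins, had 86.5, 58.7 and 50.0 normalized counts in overexpression and 123, 178 and 162 in RNAi, against 11.4, 6.72 and 6.24 in control. It was 8.01-fold higher in overexpression and 19.0-fold higher in RNAi, the largest rise among the cell surface genes listed for RNAi. Overexpression lay under RNAi by -1.25 on the log2 scale (limma adjusted p = 0.00232). Snmp2, a CD36-family membrane protein, had the largest fall among these genes in RNAi: 6.51, 8.5 and 6.80 normalized counts in RNAi, against 89.3, 90.2 and 93.6 in control. The RNAi libraries held 22 reads of it in all and control 302, and the fall was 12.5-fold (log2 ratio -3.65 ± 0.12, SE). PGRP-LB averaged 51.5 ± 23.1 in RNAi and 181 ± 18.7 in control. PGRP-LC, the membrane receptor of the Imd immune pathway, averaged 400 ± 5.57 in overexpression and 121 ± 19.7 in control. Under TMM factors it lost its call (log2 change 0.20, edgeR adjusted p = 0.50).

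**Figure D4:**
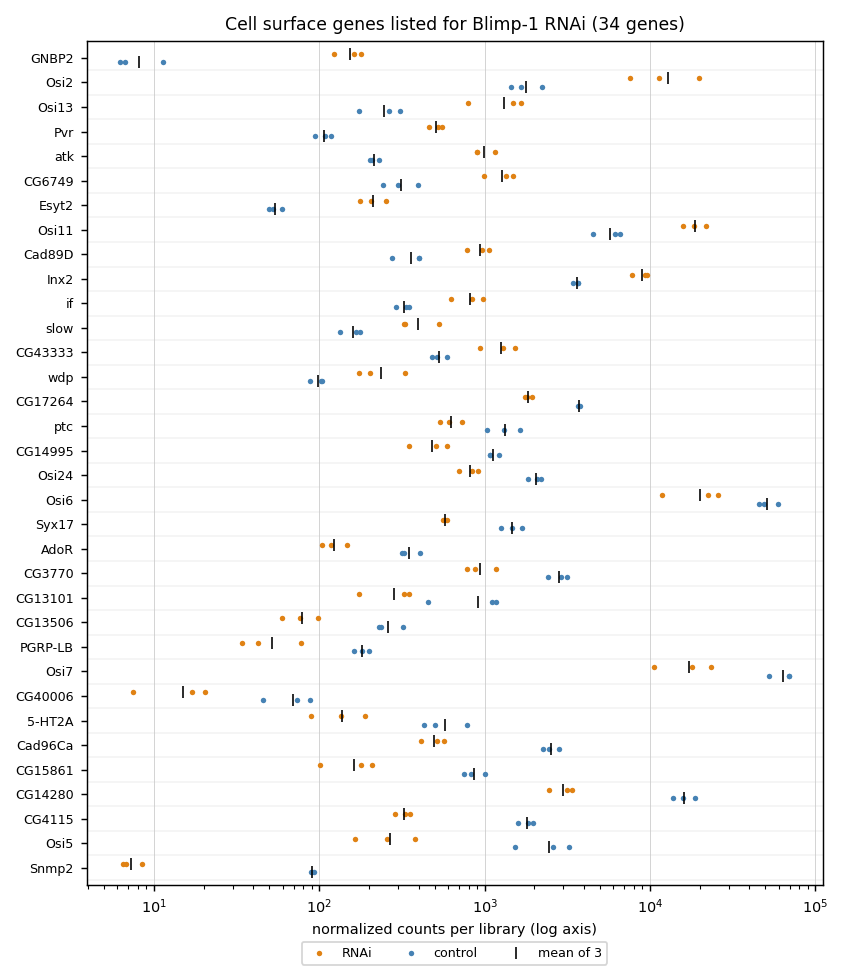
Normalized counts (log axis) of the 34 cell surface genes listed for Blimp-1 RNAi, one row per gene, with 3 RNAi and 3 control libraries as points and group means as bars. GNBP2 at the upper end has all RNAi points above control, and Snmp2 at the lower end has all RNAi points below it.

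Further adhesion genes were listed in 1 genotype only. The integrin genes split between the genotypes in this sense: mew, for the alpha PS1 subunit, was listed for overexpression, and if, for alpha PS2, for RNAi. mew had 3418, 1456 and 2913 normalized counts in overexpression, against 530, 535 and 500 in control, and was 4.97-fold higher (under TMM factors its log2 change was 0.82, edgeR adjusted p = 0.072). The gene if had 984, 623 and 843 in RNAi, against 351, 336 and 291 in control, and was 2.51-fold higher. No value of either gene in the other altered genotype is known here. Of cadherin genes, Cad89D averaged 939 ± 142 in RNAi and 361 ± 73.3 in control, Cad74A 884 ± 295 in overexpression and 241 ± 142 in control, and Cad86C 95.3 ± 13.7 in overexpression and 357 ± 102 in control. Cad89D and Cad74A were thus higher and Cad86C lower, with Cad74A not called under TMM factors.

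Some genes of junctions, polarity and wiring rose in overexpression, though under TMM factors sinu, in and babos turned round and bdl lost its call (log2 change 0.73, edgeR adjusted p = 0.11). bdl, an immunoglobulin protein known in photoreceptor axon targeting, had 3003, 1286 and 1976 normalized counts in overexpression, against 511, 415 and 405 in control, and was 4.71-fold higher. sinu, a claudin of septate junctions, was 2.41-fold higher, in (inturned), a planar polarity effector, 2.6-fold, and the immunoglobulin gene babos 2.73-fold. Others fell: ds, the large cadherin Dachsous of planar polarity and growth control, had 443, 236 and 607 normalized counts in overexpression, against 1016, 1071 and 956 in control. Without overexpression replicate 2 its fold of 2.37 lower was 1.93. fax, known in axon development, averaged 5655 ± 2919 in overexpression and 14098 ± 517 in control, and its fold of 2.49 lower was 1.98 without that replicate. conv, kek3 and spdo, the last a Notch regulator in asymmetric divisions, were 2.56-, 2.40- and 3.28-fold lower. In RNAi the Hedgehog receptor gene ptc averaged 627 ± 97.5 normalized counts, against 1325 ± 296 in control.

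Gap junction genes were higher wherever they were listed, under the authors' scaling. Inx2 had 9576, 7738 and 9399 normalized counts in RNAi, against 3436, 3686 and 3691 in control, 2.47-fold higher. Inx3 had 9196, 9628 and 9398 in overexpression, against 2672, 3386 and 3125 in control, 3.07-fold higher. Inx7 averaged 216 ± 44.7 in overexpression and 47.8 ± 8.29 in control, 4.53-fold higher. In none did the groups overlap, but under TMM factors Inx3 (log2 change 0.094, edgeR adjusted p = 0.70) and Inx7 (0.62, adjusted p = 0.061) lost their calls. Inx2 and Inx7 are neighbours on X, 5059 bases apart.

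Among genes of photoreceptor signalling, all listed for overexpression only, 7 were higher and 2 lower, under the authors' scaling. Under TMM factors boss and santa-maria turned round, and rtp (log2 change 0.55, edgeR adjusted p = 0.073), Gbeta76C (0.29, adjusted p = 0.26) and Rh5 (0.98, adjusted p = 0.13) lost their calls. Arr2 had 54519, 60739 and 48258 normalized counts in overexpression, against 3078, 3707 and 3588 in control. rtp, which encodes retinophilin, a partner of the myosin NinaC, had 9742, 9068 and 5669 in overexpression, against 2161, 1784 and 1808 in control, 4.26-fold higher. Gbeta76C, the beta subunit of the eye's G protein, averaged 3548 ± 614 in overexpression and 997 ± 112 in control, 3.56-fold higher. Within each of these genes the overexpression libraries were all above control. Of 18 photoreceptor markers 9 were listed, 6 higher and 3 lower, and 5 of the 9 are cell surface genes. Their summed levels were 62960 to 78185 in overexpression and 13003 to 17104 in control. Arr2 made up most of the sum in each overexpression library, so the sum does not show a rise of the markers as a set. santa-maria, a scavenger receptor for carotenoid uptake, was 2.30-fold higher and boss, the ligand of the Sevenless receptor, 2.37-fold. Rh5, an opsin of a subset of inner photoreceptors, had few reads: 17.3, 17.9 and 11.2 normalized counts in overexpression, against 3.36, 2.88 and 1.25 in control, from 44 and 9 reads. The authors' deposited table gives Rh5 an adjusted p of 0.0373, the largest of the 66 genes. Arr1 rested on a control level of 6.05, 28.8 and 4.99 normalized counts, so that its fold of 289.4 was 696.0 without control replicate 2. The lower genes were inaD, the scaffold of the light response (735 ± 156 in overexpression, against 2059 ± 340 in control), and inaF-D. inaF-D had 7.29, 1.28 and 11.2 normalized counts in overexpression, against 38.3, 41.3 and 16.2 in control, from 20 and 113 reads. Its fold of 4.84 lower was 7.45 without overexpression replicate 3.

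Channel, receptor and synapse genes split into 6 higher and 8 lower in overexpression. The lower group held neuronal channels and a synaptic scaffold: slo, a calcium-activated potassium channel, eag, a voltage-gated potassium channel, Ca-alpha1T, a T-type calcium channel, NaCP60E, of the sodium channel family, Nmdar2, an NMDA receptor subunit, and Rim, of the presynaptic active zone. slo had 415, 168 and 609 normalized counts in overexpression, against 2083, 1161 and 1578 in control, 4.04-fold lower. Rim had 339, 112 and 338 in overexpression, against 1231, 577 and 689 in control, 3.16-fold lower. Overexpression replicate 2 was the lowest library in both, and control replicate 1 the highest. This held for most of the group: overexpression replicate 2 was lowest in 7 of the 8 genes and control replicate 1 highest in 6 of them. It was common among lower genes in general. Control replicate 1 was highest in 15 of the 27 lower cell surface genes and in 120 of all 196 lower genes. Overexpression replicate 2 was lowest in 17 and 113 of these. The ratio of replicate 2 to the mean of the other overexpression libraries had a median of 0.33 in the 8 genes, beside 0.78 in the other 19 lower cell surface genes.

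Without overexpression replicate 2 the changes in these genes were smaller and kept their direction. slo was 3.14-fold lower without it, Rim 2.46-fold, NaCP60E 2.40-fold, Nmdar2 2.39-fold, Ca-alpha1T 2.33-fold and eag 2.10-fold. Against replicate 2 alone the same folds were 9.54, 7.41, 7.33, 9.34, 8.17 and 5.92. The neuronal markers outside the cell surface genes had the same order of libraries. Of these nAChRalpha7 had 609, 390 and 942 normalized counts in overexpression, against 2791, 1871 and 2563 in control. The library order was thus shared by neuronal genes but not confined to them. Of the other 19 lower cell surface genes, overexpression replicate 2 was lowest in 10, and in 7 control replicate 1 was highest as well. The part of this order in these falls was not tested. In CG33639 control replicate 3 was the highest control library. CG7589, now named SecCl, a chloride channel gene, had another order in both groups, with 20.9, 33.2 and 16.3 in overexpression, against 138, 157 and 109 in control.

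**Figure D5:**
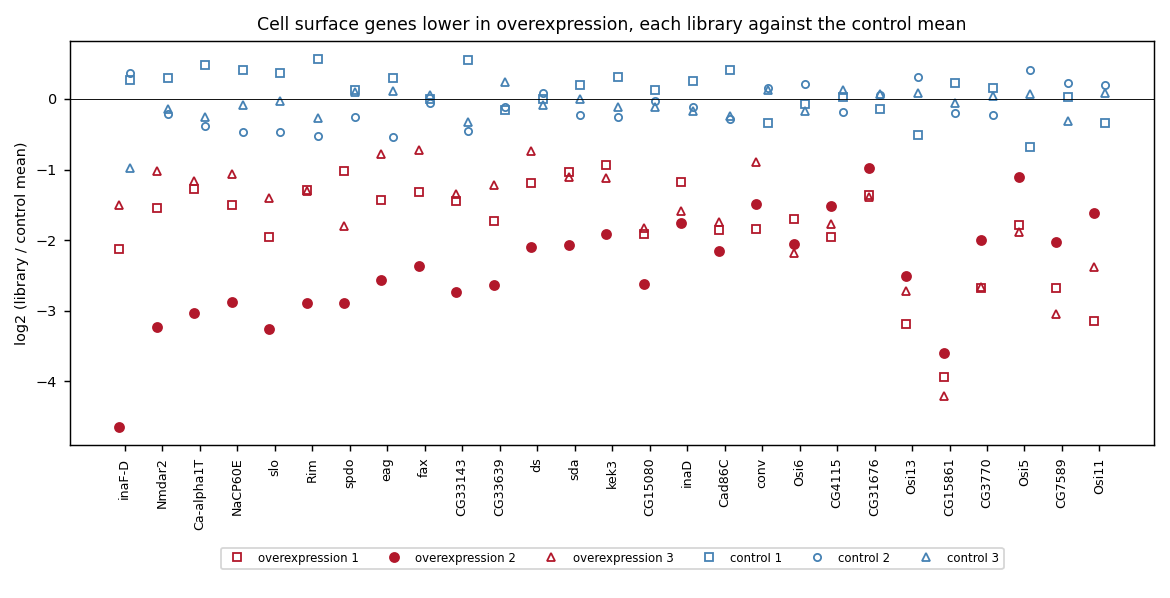
Log2 of each library's normalized count over the control mean (y axis) for the 27 cell surface genes lower in overexpression (x axis), ordered by how far overexpression replicate 2 lay from the other overexpression libraries. Replicate 2, the filled circle, lies below the other overexpression libraries in genes such as inaF-D, Nmdar2 and slo and above them in Osi5 and Osi11.

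The 6 higher genes of this role went the other way, most of them from low control levels, so the role did not fall as a whole. clumsy, a kainate-type glutamate receptor, had 201, 122 and 204 normalized counts in overexpression, against 2.69, 6.72 and 4.99 in control, 36.7-fold higher, from 517 and 15 reads. mthl9 had 74.7, 148 and 108 in overexpression, against 2.69, 12.5 and 11.2 in control, 12.5-fold higher, and its neighbour mthl10, 491 bases away on 3L, averaged 2573 ± 197 in overexpression and 684 ± 61.2 in control. Both encode G protein-coupled receptors of the Methuselah-like family, as does mthl2, whose fold of 4.96 was 9.11 without control replicate 2; mthl2 and mthl10 were not called under TMM factors. Ir68a, of the ionotropic receptor family, was 7.64-fold and fusl 4.0-fold higher, the last not called under TMM factors. In RNAi the only listed genes of this role were the serotonin receptor gene 5-HT2A and the adenosine receptor gene AdoR, both lower. 5-HT2A had 89.3, 136 and 188 normalized counts in RNAi, against 786, 502 and 429 in control, 4.16-fold lower. AdoR averaged 123 ± 22.2 in RNAi and 350 ± 51.4 in control.

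Tetraspanin and zona pellucida genes had some of the largest rises among cell surface genes in overexpression. Tsp29Fb, a tetraspanin, had 433, 533 and 412 normalized counts in overexpression, against 12.1, 12.5 and 11.2 in control, 38.5-fold higher (log2 ratio 5.27 ± 0.13, SE). pio, or Piopio, a zona pellucida protein that ties epithelia to the apical matrix, had 4838, 2706 and 4125 in overexpression, against 169, 158 and 130 in control, 25.5-fold higher. Tsp74F had 2029, 3069 and 2334 in overexpression, against 138, 196 and 158 in control, 15.1-fold higher. In all 3 genes the lowest overexpression library stood more than 10 times above the highest control library. None of them was listed for RNAi. Of trafficking genes, the SNARE gene Syx4 was 2.79-fold and wus, which acts in clathrin-mediated endocytosis, 3.77-fold higher in overexpression. Under TMM factors Syx4 turned round (log2 change -0.038) and wus lost its call (0.38, edgeR adjusted p = 0.15). Syx17 was 2.57-fold lower in RNAi, at 575 ± 16.6 and 1474 ± 216 in control, while slow, 305 bases from it on the same strand of 3L, was 2.49-fold higher.

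Less well characterised genes included some high ones. CG14280 had 3396, 3142 and 2450 normalized counts in RNAi, against 13843, 18607 and 15832 in control, 5.37-fold lower. CG15080 had 2050, 1250 and 2166 in overexpression, against 8444, 7567 and 7135 in control, 4.24-fold lower. CG17111 averaged 884 ± 125 in overexpression and 141 ± 35.9 in control, 6.29-fold higher. CG17264 was nearest to the authors' lower limit among the cell surface genes listed for RNAi, with 1828 ± 92.7 in RNAi and 3737 ± 52.9 in control, 2.04-fold lower. CG13506 (RNAi, 3.35-fold lower) and babos overlap by 140 bases on opposite strands of 2R.

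Families listed by symbol, whether or not the authors called a gene cell surface, were read for the whole set. The lists do not hold every relative: wdp and atk, with leucine-rich repeats, the receptor kinase gene Cad96Ca and Ir68a stand outside the lists of their kind, with the values given above. Of 86 G protein-coupled receptor symbols, 5 were listed and higher in overexpression (Rh5, mthl2, mthl9, mthl10 and boss), and under TMM factors mthl9 kept its call, boss turned round and the others lost their calls; the 2 listed in RNAi were lower. Of 23 cadherin and planar polarity symbols, 2 were higher and 3 lower in overexpression (Cad96Ca, higher, turned round under TMM factors), and 1 higher and 2 lower in RNAi. Of 92 immunoglobulin superfamily symbols, 2 were higher (babos turned round under TMM factors) and 1 lower in overexpression, and 1, ImpL2, was lower in RNAi. The 23 Ly6 and anchored protein symbols had 5 higher and 1 lower in overexpression and 2 higher in RNAi. The 29 scavenger and lipoprotein receptor symbols had 4 higher in overexpression (santa-maria turned round under TMM factors) and 1 higher and 1 lower in RNAi. Integrins, proteoglycans and matrix receptors (16 symbols) had 2 higher in overexpression, mew and pio, and in RNAi if higher and trol lower. Receptor kinases, phosphatases and guidance receptors (39 symbols) had Pvr as the listed symbol, higher in each, though turned round in overexpression under TMM factors. Notch, EGF and TNF ligands and related genes (36 symbols) had egr, higher in each, and ptc, lower in RNAi. Leucine-rich repeat symbols (25) had conv lower in overexpression and chp lower in RNAi, tetraspanins (16) had Tsp29Fb and Tsp74F, and none of the 14 symbols in the list of gustatory, olfactory and ionotropic receptors was listed. Unlisted symbols have no value here.

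The authors' entries for the stage of peak expression were blank for many genes. In overexpression, of 29 higher cell surface genes with an entry 16 peaked later than 2 d (55.2%, beside 45.7% of all higher genes) and 3 at 2 d (10.3%, beside 15.4%). Of 18 lower genes with an entry 4 peaked at 2 d (22.2%, beside 46.8% of all lower genes), 7 later and 6 earlier. In RNAi, of 9 lower genes with an entry 7 peaked at 2 d (77.8%, beside 68.6%), the age of the samples, among them Osi5, Osi6, Osi7 and Osi24. The 12 higher genes with an entry were spread evenly, with 4 earlier, 4 at 2 d and 4 later. In the RNAi tables a Blimp-1 site was marked for 7 of 14 higher (50.0%) and 11 of 20 lower (55.0%) cell surface genes, beside 43.5% and 41.3% of all listed genes. It was marked for 6 of the 7 Osiris genes, all but Osi13. A site of Slbo, another transcription factor, was marked for 7 of 14 higher (50.0%) and 8 of 20 lower genes (40.0%), beside 37.5% and 31.2%. The sources used here do not say how these entries were assigned.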

How the data were processed

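Per the labels' protocols, stranded mRNA libraries took 250 ng of total RNA each. Per the submitters' processing notes, tools included STAR 2.6.1d, Subread 1.6.3, Picard 2.18.20, bedtools 2.26.0 and DESeq2 with build dm6; the sources used here do not give their settings. The authors deposited normalized counts (a signal scaled by 1 factor per library), log2 fold changes and adjusted p-values for listed genes only. The deposited log2 fold changes ran control over altered and were turned round. Values were whole multiples of 1 step per library, and whole reads were recovered for 100% of values within 0.02 reads. Total depth is unknown.

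Folds are ratios of means of 3 libraries without a pseudocount. limma 3.58.1 (R 4.3.3, with trend) was fitted on log2(normalized count + 1) over all listed genes of a comparison, with Benjamini-Hochberg adjustment and a threshold of 0.05, and tested on simulated data. The simulated data held unchanged genes, whereas all listed genes had passed a threshold, so that test does not bear on the calls here. Alternatives were other pseudocounts, a mean of at least 20, edgeR 4.0.16 (quasi-likelihood, also with TMM factors) and DESeq2 1.42.0 on recovered reads, a replicate block, leaving out each library, and the function read from a comparison's own tables. The genes, lists and tests were chosen with earlier results of these data known; the marker lists were written after the values were seen. A rule took genes of both comparisons, of largest change, of highest mean and of the family lists, naming 24 of 34 and 40 of 66 genes; the others were chosen after their values were seen. Deviations of same-numbered overexpression and RNAi libraries from their group means correlated at 0.277, 0.549 and 0.184 over 179 genes. With 3 libraries per group, whose deviations are not independent, this does not establish a pairing, and the labels give none. Same-numbered altered and control libraries did not all deviate together. Promoter motifs were not analysed here.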

Additional observations from a re-analysis of the deposited data

Results flagged for a closer look

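The difference between overexpression and RNAi itself passed limma in 12 of the 14 genes listed in both altered genotypes, with 3 libraries in each group. That was 85.7%, beside 63.7% of the 179 genes listed in both. On the log2 scale, overexpression minus RNAi was -5.10 for Osi13, -4.06 for Osi11, -1.42 for CG15861, -1.25 for GNBP2, -1.0 for Pvr, -0.84 for CG3770 and -0.66 for atk. It was 3.49 for Cad96Ca, 1.69 for Osi5, 1.30 for wdp, 0.94 for CG6749 and 0.73 for CG4115. Under TMM factors CG4115 turned round (-0.21), and CG6749 (0.023, edgeR adjusted p = 0.95) and wdp (0.37, edgeR adjusted p = 0.30) lost their calls. Without RNAi replicate 2, CG3770, CG4115 and atk did not pass limma, and atk also failed without some other single libraries. The difference was 36.3-fold for Osi13, 15.4-fold for Osi11 and 11.3-fold for Cad96Ca, the genes whose control libraries lay between the altered genotypes. Their listing in opposite directions made a difference certain before the test, so their calls add no evidence of it.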

How the results depend on the processing

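Under the other pseudocounts, and edgeR and DESeq2 with the authors' scaling, no gene changed direction and no listed gene lost its call against control. Between overexpression and RNAi, DESeq2 called 13 genes instead of 12, with Esyt2 added (DESeq2 adjusted p = 0.0433). The filter on a mean of at least 20 removed Rh5, mthl2 and inaF-D and called 63 genes in overexpression, 37 higher and 26 lower. With edgeR's TMM factors, which centre on genes that had all passed a threshold, the median log2 change of all listed genes moved by -1.53 for overexpression, by -0.93 for overexpression against RNAi and by -0.0056 for RNAi. Of the 66 genes 41 were then called, 14 higher and 27 lower, beside 56.9% of all listed. The log2 changes in overexpression turned round for babos (-0.10), in (-0.15), Syx4 (-0.038), boss (-0.28), CG9628 (-0.23), sinu (-0.27), CG1806 (-0.32), Pvr (-0.20), santa-maria (-0.32) and Cad96Ca (-0.35), and those of overexpression to RNAi for CG4115 (-0.21) and Esyt2 (-0.36). Leaving out single libraries gave 9 to 13 genes called between overexpression and RNAi. The median log2 ratio of means ran 1.72 to 1.89 for genes higher in RNAi, -1.91 to -1.67 for lower ones, 2.02 to 2.33 for genes higher in overexpression and -1.90 to -1.39 for lower ones. With the replicate block, 34, 66 and 13 genes were called instead of 34, 66 and 12, Esyt2 (adjusted p = 0.0453) being the addition; it changed no other call. Same-numbered RNAi and control libraries correlated at 0.327, 0.0805 and 0.0506, and overexpression and control libraries at 0.42, 0.205 and -0.00078. Choosing genes by the overexpression tables' own function entry kept 34 of 39 higher and 25 of 27 lower genes and brought in 3 others, all higher. Depth limits 7 genes with under 30 reads over the libraries of their lower group: Rh5 (9), clumsy (15), inaF-D (20), mthl2 (21), Snmp2 (22), mthl9 (26) and GNBP2 (29).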
